A study of Mus musculus with 18 samples.

Results

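The data set oocytes of a PM2.5 exposure group against oocytes of a filtered-air group of mice, and the members described here are all genes with a mean log2 value of at least 3 over the 6 oocyte libraries. The limit is a mean over both groups, so a gene low in 1 group could meet it through the other. Of the 52550 genes in the deposited table, 4080 met this limit. All but 1 of them were above 0 in all 6 libraries, the exception being the transcription factor Mafg, which was listed at 0 in PM2.5 replicate 1. The members nearest the limit were Fbxl20, Mrpl50 and Cfap36, with means of 3.0002, 3.001 and 3.001, and the nearest genes outside it were Mapkbp1, Ccdc86 and Zcchc14, with 2.999, 2.998 and 2.998.

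There were 3 oocyte libraries from the PM2.5 exposure group (fine airborne particles) and 3 from the filtered-air group, all from mice of the strain C57BL/6. The series also holds cumulus cells, the somatic cells around the oocyte, and blastocysts, the embryo before implantation, each with 3 libraries per exposure group, 18 libraries in all. The labels enter the exposure under the genotype tag and name no allele or other agent. They do not give the age of the mice, the dose, length or apparatus of the exposure, or how many oocytes and animals went into a library. A p-value here speaks only of the scatter among libraries, part of which may be technical. Each value is log2(x + 1), where x is what the authors call a normalized count, so a difference between groups is a log2 fold change of x + 1 and understates the change of low genes. Whether x was divided by transcript length is not stated, and levels are compared between groups within a gene, with sums over genes given only to set libraries side by side.

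A growing oocyte makes and stores a large pool of messenger RNA. Near full size it falls transcriptionally silent, and the levels of its transcripts then depend mainly on storage, translation and decay until the embryonic genome takes over. The oocyte also supplies the embryo with its mitochondria, its chaperones and its repair enzymes. Fine particles carry aromatic hydrocarbons and metals, and in airway and other tissues they are known for engaging the aryl hydrocarbon receptor, the oxidative stress regulator NRF2 and heat shock proteins.

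Few transcripts separated the exposure groups. With PM2.5, 9 of the 4080 genes passed the test (limma, two-sided, Benjamini-Hochberg adjusted p below 0.05), which is 0.221%, and 2 of them rose (0.049%) while 7 fell (0.172%). The genes that rose were Pacsin2, which codes for a membrane-bending protein, and Mrpl9, a subunit of the mitochondrial ribosome. Those that fell were the actin regulator Eps8, the DNA glycosylase Neil3, the G protein subunit Gna14, the co-chaperone Dnaja1, the long non-coding RNAs Gm20052 and Gm29999 and the pseudogene Gm15542. The median difference over all genes was -0.035, and 57.7% were lower and 42.3% higher by their means. A difference of at least 1 on the log2 scale was seen in 57 genes, 26 higher and 31 lower, and in 26 of these 57 the groups did not overlap. In simulated data with the spread of these libraries over 4080 genes, the test recovered 84% of genes changed by 1 log2 unit. It recovered 97% of those changed by 2, and the run with both sizes of change gave 6 false calls in all. Far more genes were changed there than the 9 that passed here. The simulated noise was normal, without the single outlying libraries seen in some genes, so these rates may overstate the power.

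**Figure D1:**
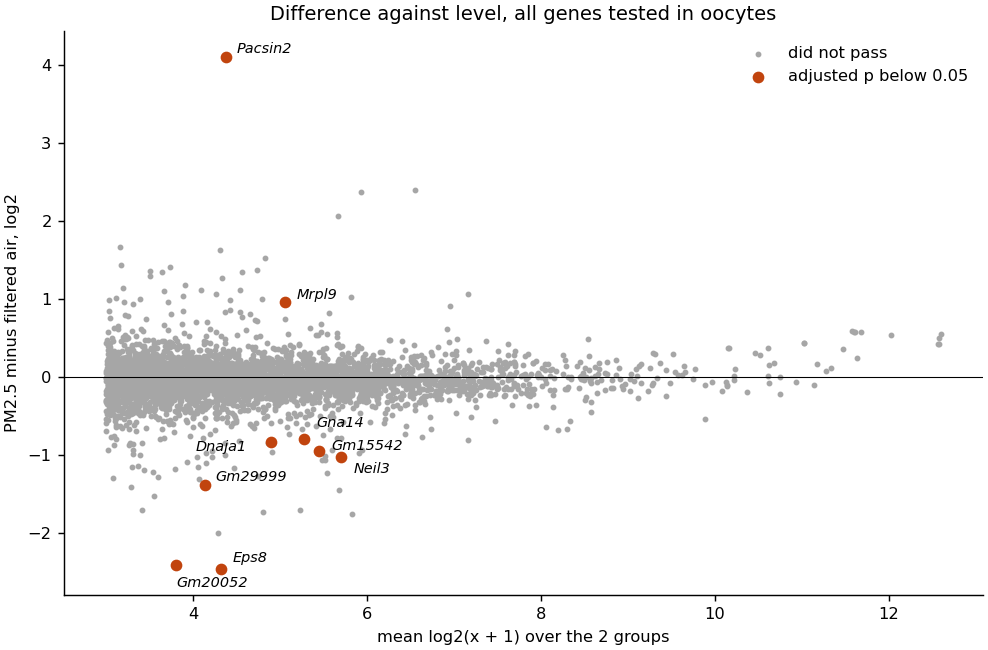
The plot shows each of the 4080 genes by its mean log2(x + 1) over both groups (horizontal axis) and its difference, PM2.5 minus filtered air, in log2 units (vertical axis), with the 9 genes that passed in red and named. Pacsin2 lies highest at 4.11, and several grey points lie farther from 0 than Mrpl9 or Dnaja1.

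The oocyte libraries resembled each other closely, with between 16744 and 17439 genes above 0 and correlations across genes of 0.982 to 0.987 within groups and 0.982 to 0.986 between them. Filtered-air replicate 3 stood apart on the first principal component of the tested genes (27.3% of variance), at 21.5 against -8.07 to -0.49 for the other 5 libraries. Without it only Gm20052 and Eps8 passed, and without filtered-air replicate 1 there were 3 genes past the threshold. Mitochondrially encoded genes held 17.4%, 16.7% and 17.9% of the summed x in the PM2.5 libraries (replicates 1 to 3), against 16.0%, 14.2% and 11.4% in the filtered-air libraries. The groups did not overlap, and the exact two-sided permutation p was 0.1, the smallest that 3 libraries against 3 can give.

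The oocyte identity of the libraries was plain. The secreted growth factor Gdf9 stood at 11.32, 11.19 and 11.26 in PM2.5 oocytes and at 10.84, 10.90 and 11.52 in filtered-air oocytes, against means of 3.66 over all cumulus libraries and 0.61 over all blastocyst libraries. Its partner Bmp15 stood at 10.28, 10.12 and 9.89 in PM2.5 oocytes and at 9.99, 10.004 and 10.50 in filtered-air oocytes. The egg coat protein Zp3 stood at 7.29, 7.24 and 7.18 in PM2.5 oocytes and at 7.19, 7.13 and 7.78 in filtered-air oocytes. The kinase Mos, which holds the egg at metaphase II, stood at 9.51, 9.29 and 9.63 in PM2.5 oocytes and at 9.32, 9.24 and 9.61 in filtered-air oocytes. The groups overlapped for all 4 markers and none passed.

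Transcripts of neighbouring cell types were low in every library. Of 27 cumulus and granulosa markers, 6 were at 0 in all 6 oocyte libraries, among them Amh, Fshr and Lhcgr, and the summed x of the list ranged from 22.8 to 27.6 in PM2.5 oocytes and from 19.6 to 24.7 in filtered-air oocytes. Most of that sum was the aromatase gene Cyp19a1, the only member over the limit, at 4.17, 4.17 and 3.80 in PM2.5 and 4.02, 3.76 and 3.85 in filtered-air oocytes. Its mean over all cumulus libraries was lower, at 1.58, so it did not mark cumulus cells in this series. Of 14 leukocyte markers 8 were at 0 throughout, and their sum ranged from 0.598 to 1.58 in PM2.5 and from 0.497 to 2.10 in filtered-air oocytes. Sums for 5 red blood cell markers were 0.318 to 1.05 in PM2.5 and 0.230 to 1.13 in filtered-air oocytes. Those for 10 oviduct markers were 0.792 to 2.36 in PM2.5 and 1.002 to 1.34 in filtered-air oocytes. The 10 stromal and smooth muscle markers summed to 6.49 to 9.70 in PM2.5 and 7.09 to 9.06 in filtered-air oocytes. Of these Myh11 averaged 2.59 in PM2.5 and 2.70 in filtered-air oocytes, above its mean of 0.054 in cumulus cells. The exposure groups overlapped in each of these sums. In bulk libraries, fewer cells of a type and less RNA per cell cannot be told apart.

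Regulators of membrane shape and the actin cortex held the largest differences. Pacsin2, which codes for an F-BAR protein that bends membranes in endocytosis and caveolae, stood at 5.91, 5.91 and 7.49 in PM2.5 oocytes and at 2.39, 2.13 and 2.46 in filtered-air oocytes. Every PM2.5 library was more than 3 log2 units above every filtered-air library, and PM2.5 replicate 3 stood above the other two. The difference was 4.11 (SE 0.41, 95% interval 3.16 to 5.06, limma adjusted p = 0.0144), a 17.2-fold rise of x + 1. Pacsin2 met the limit of 3 only through the PM2.5 libraries; with the limit at a mean of 1, which both groups exceed, it also passed (adjusted p = 0.0119). The call was lost without filtered-air replicate 1 (adjusted p = 0.079) or 3 (0.066), in a robust fit (0.054) and in a fit of all 18 libraries (0.131). It was also lost when every gene above 0 in any library was tested. In cumulus cells the same gene stood at 0.30, 4.61 and 4.64 in the PM2.5 libraries (replicates 1 to 3), against 4.61, 0.16 and 0.40 in the filtered-air libraries, so there the high and the low level occurred in both exposure groups. In blastocysts it stood at 1.67, 0.92 and 0.96 with PM2.5 and at 1.25, 1.38 and 1.78 with filtered air.

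Eps8, which codes for a protein that caps and bundles actin filaments, stood at 2.93, 3.40 and 2.95 in PM2.5 oocytes and at 5.63, 5.67 and 5.37 in filtered-air oocytes. No library lay between the groups. It fell by 2.47 (SE 0.17, 95% interval -2.86 to -2.07, limma adjusted p = 0.00203) and passed with each of the 6 libraries left out in turn. In cumulus cells it stood at 0.50, 0.51 and 0.44 with PM2.5 and at 0.52, 3.01 and 0.47 with filtered air, with filtered-air replicate 2 alone above the rest. Of the 32 tested actin regulators, 13 were higher and 19 lower by their means and 1, Eps8, passed. In 4 of them the groups did not overlap, all lower with PM2.5, which is near the share over all genes (10.3% lower and 5.02% higher). These included the WAVE subunit Wasf1 (3.14, 2.77 and 2.88 with PM2.5, 3.43, 3.30 and 3.33 with filtered air), the actin nucleator Spire1, which acts in spindle positioning in the mouse oocyte (6.02, 5.82 and 6.09 with PM2.5, 6.19, 6.33 and 6.28 with filtered air), and the small GTPase Cdc42, with a difference of -0.24. None of these 3 passed (limma adjusted p of 0.559 to 0.575), and Wasf1 met the limit of 3 only through the filtered-air libraries. Among 16 tested genes of membrane bending and endocytosis, Pacsin2 was the 1 that passed, 7 were higher and 9 lower by their means, and the median was -0.04. The late endosome GTPase Rab7 stood at 6.74, 6.72 and 6.78 in PM2.5 oocytes and 6.54, 6.48 and 5.98 in filtered-air oocytes (difference 0.41, adjusted p = 0.559), and the difference was 0.24 without filtered-air replicate 3.

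**Figure D2:**
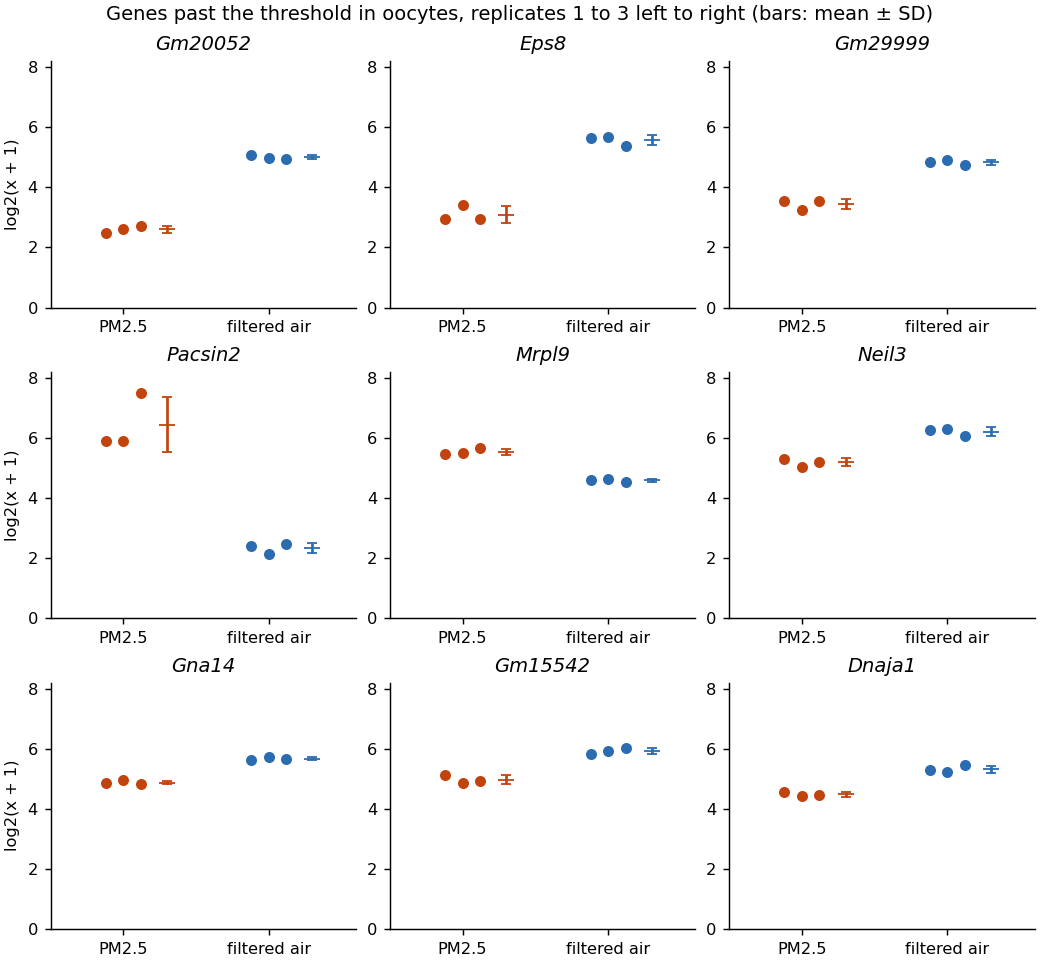
Each panel plots log2(x + 1) of a gene that passed, with a point per library (replicates 1 to 3 from left to right), PM2.5 in red on the left and filtered air in blue on the right, and the mean with its SD beside the points. Pacsin2 and Mrpl9 are higher with PM2.5, the other 7 are lower, and in all 9 panels the groups do not overlap.

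Enzymes that repair or prevent oxidative damage held 1 gene that fell and several below the limit of the test. Neil3, a glycosylase that removes oxidized bases and unhooks DNA crosslinks, stood at 5.31, 5.05 and 5.20 in PM2.5 oocytes and at 6.28, 6.30 and 6.06 in filtered-air oocytes. The groups were separated in all libraries, and the gene fell by 1.03 (SE 0.12, limma adjusted p = 0.0247). Of the 6 fits that each left out a library it passed in 1, that without PM2.5 replicate 1, with adjusted p of 0.0461 to 0.105 over the 6. Outside the oocyte Neil3 was close to 0, with values of 0.41 to 1.02 in cumulus cells and 0 in 5 of 6 blastocyst libraries. Only 2 other base excision repair genes were tested, the replication clamp Pcna with a difference of -0.21 and the uracil glycosylase Smug1 with -0.06, and neither passed. The checkpoint kinase Chek1 stood at 7.36, 7.13 and 7.75 in PM2.5 oocytes and at 6.75, 6.64 and 6.11 in filtered-air oocytes, a difference of 0.91 (SE 0.21, adjusted p = 0.306). Of 23 DNA damage genes 12 were higher and 11 lower by their means, and none passed.

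Among 10 antioxidant enzymes 1 was higher and 9 lower by their means, with a median of -0.14 (-0.07 without filtered-air replicate 3) and none past the threshold. Gpx3, a secreted glutathione peroxidase that removes hydrogen peroxide, stood at 3.94, 4.13 and 4.30 in PM2.5 oocytes and at 4.99, 4.91 and 4.91 in filtered-air oocytes. Its groups did not overlap, and its difference of -0.82 (SE 0.13) missed the threshold at an adjusted p of 0.0802. Gpx1, the main cytosolic glutathione peroxidase, stood at 3.61, 2.95 and 2.92 in PM2.5 oocytes and 3.45, 3.55 and 3.78 in filtered-air oocytes. Of 14 tested genes of the NRF2 pathway, 7 were higher and 7 lower by their means, and none passed. The glutathione transferase Gstm5 stood at 7.51, 7.14 and 6.92 with PM2.5 and 7.83, 7.63 and 7.79 with filtered air, while Mgst3 stood at 6.71, 6.86 and 7.13 with PM2.5 and 6.56, 6.53 and 6.64 with filtered air. The groups were thus apart in opposite directions for these transferases (differences of -0.56 and 0.33, adjusted p of 0.422 and 0.559). Of 15 listed genes of the aryl hydrocarbon receptor pathway, 6 were tested. Their median was 0.03, and all 6 overlapped between groups. With 6 genes this cannot be told apart from the share over all genes, of which 15.3% did not overlap. The receptor gene Ahr stood at 4.46, 4.11 and 4.17 in PM2.5 and 4.27, 4.19 and 4.30 in filtered-air oocytes, and its target gene Tiparp at 9.10, 9.02 and 8.91 in PM2.5 and 9.06, 9.08 and 8.97 in filtered-air oocytes. For Ahr the difference was -0.01 with a SE of 0.13.

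Chaperones included 1 gene that fell. Dnaja1, a cytosolic partner that loads clients onto heat shock protein HSP70, stood at 4.57, 4.43 and 4.44 in PM2.5 oocytes and at 5.30, 5.22 and 5.44 in filtered-air oocytes. It fell by 0.84 (SE 0.11, limma adjusted p = 0.0400), and no fit that left out a library kept the call (0.078 to 0.159). Of the 21 tested chaperones 10 were higher and 11 lower by their means, with a median of -0.01. In 6 of 21 the groups did not overlap, all lower with PM2.5, against 10.3% lower and 5.02% higher among all genes. They were Dnaja1, the mitochondrial co-chaperonin Hspe1 (difference -0.53), the HSP70-interacting protein St13 (-0.31), Dnaja2 (-0.29), Dnajb1 (-0.32) and Dnajb6 (-0.22). The 5 besides Dnaja1 did not pass, with adjusted p from 0.290 to 0.615. In the stress response lists, Atf4, the transcription factor of the integrated stress response, stood at 5.25, 5.32 and 5.15 in PM2.5 oocytes and at 5.70, 6.00 and 6.04 in filtered-air oocytes (difference -0.67, SE 0.12, adjusted p = 0.121). None of the 14 genes of that list passed.

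Gna14, an alpha subunit of the Gq class that couples receptors to phospholipase C, stood at 4.85, 4.94 and 4.83 in PM2.5 oocytes and at 5.62, 5.73 and 5.66 in filtered-air oocytes. The spread within a group was small, with an SD of 0.06 in each, and the gene fell by 0.80 (SE 0.09, limma adjusted p = 0.0254). No fit with a library left out kept the call (0.067 to 0.107), nor did the fit of all 18 libraries (0.689), in which the spread is shared with tissues where Gna14 is low. The other 7 tested alpha subunits did not pass. Gna12 stood at 5.76, 5.41 and 5.87 in PM2.5 and 5.14, 5.28 and 5.52 in filtered-air oocytes, and Gnas, which keeps the oocyte in meiotic arrest through cyclic AMP, at 4.94, 5.38 and 5.12 in PM2.5 and 4.97, 4.94 and 5.22 in filtered-air oocytes.

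Of the mitochondrial lists, that of the mitochondrial ribosome held the 1 gene that passed. Mrpl9, a protein of the large subunit of the mitochondrial ribosome, stood at 5.46, 5.51 and 5.66 in PM2.5 oocytes and at 4.60, 4.64 and 4.52 in filtered-air oocytes. It rose by 0.96 (SE 0.10, limma adjusted p = 0.0206), a 1.94-fold rise of x + 1, and of the 6 fits with a library left out it passed in 1, that without PM2.5 replicate 1 (0.0461 to 0.104 over the 6). Of 22 tested mitochondrial ribosomal proteins 9 were higher and 13 lower by their means, and the 21 others lay between -0.22 and 0.29. Timm10, a chaperone that guides membrane proteins through the intermembrane space, stood at 3.64, 4.16 and 4.21 in PM2.5 oocytes and at 1.95, 2.40 and 2.64 in filtered-air oocytes. Its difference of 1.67 (SE 0.24) was just outside the threshold, with an adjusted p of 0.0624. With a mean of 2.33 in filtered-air oocytes, Timm10 met the limit only through the PM2.5 libraries. Iscu, the scaffold on which iron-sulfur clusters form, stood at 4.47, 4.41 and 4.28 in PM2.5 oocytes and at 3.55, 3.70 and 3.79 in filtered-air oocytes (difference 0.70, adjusted p = 0.106). The mitophagy receptor Bnip3l stood at 4.90, 5.20 and 4.74 in PM2.5 oocytes and at 4.13, 4.01 and 4.40 in filtered-air oocytes (difference 0.77, adjusted p = 0.22). In 5 of 15 tested genes of autophagy and mitochondrial dynamics, Bnip3l, Bnip3, Mfn1, Fundc1 and Atg3, all PM2.5 libraries were above all filtered-air libraries, against 5.02% of all genes. In 1, the fission GTPase Dnm1l (difference -0.25), all were below, against 10.3% of all genes, and none of the 15 passed.

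Of 15 listed transcripts of the mitochondrial genome 13 were higher by the mean, against 42.3% of all genes, with a median of 0.37. In 7 of 15 the groups did not overlap, all higher with PM2.5, against 5.02% of all genes. None passed. The 2 tested mitochondrial ribosomal RNAs had a median difference of -0.14. The mitochondrial tRNA mt-Tf, which is outside the list, was lower with PM2.5 (difference -0.85, limma adjusted p = 0.0919). The cytochrome oxidase subunit gene mt-Co2 stood at 11.76, 11.90 and 12.02 in PM2.5 oocytes and at 11.51, 11.35 and 11.07 in filtered-air oocytes (difference 0.58, SE 0.14, adjusted p = 0.306). The complex I subunit gene mt-Nd4 stood at 11.97, 11.90 and 12.02 in PM2.5 oocytes and at 11.68, 11.48 and 11.01 in filtered-air oocytes. In each case filtered-air replicate 3 was the lowest, and the median of the list was 0.22 without it. Across the other scalings of the libraries the median ranged from 0.11 to 0.42. Of the 14 tested nuclear genes of complex I, 1 was higher and 13 lower by their means, against 57.7% lower among all genes, with a median of -0.26, and none passed. Without filtered-air replicate 3 that median was -0.12 and 3 were higher. The groups did not overlap in 15.3% of all genes, and in complex I they overlapped in 12 of 14, near the share over all genes. An example is Ndufb3, at 3.01, 2.98 and 3.94 in PM2.5 and 3.65, 3.50 and 4.28 in filtered-air oocytes.

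**Figure D3:**
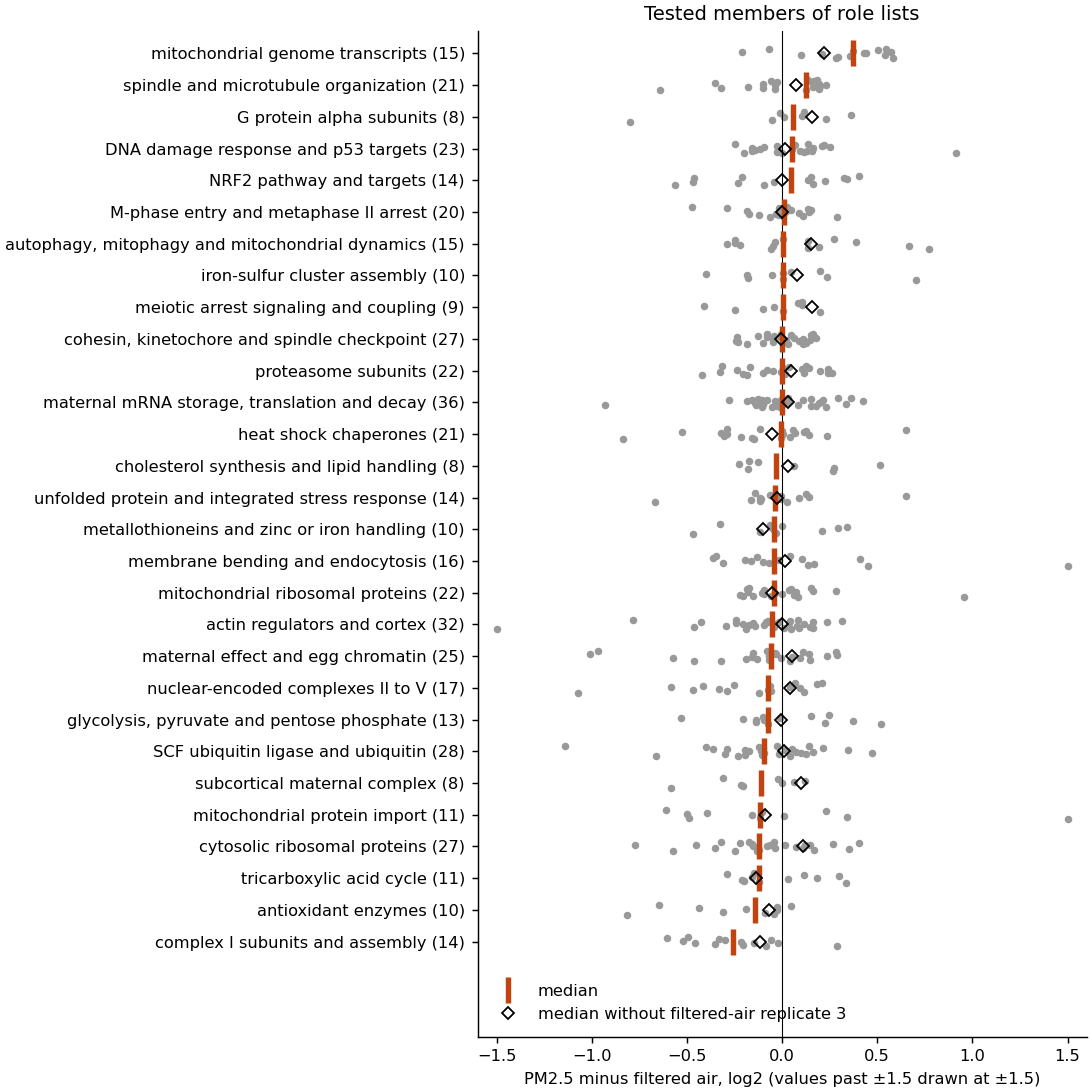
Each row is a list of genes with a shared role, with the number tested in brackets, and each grey point is a gene placed by its difference, PM2.5 minus filtered air, in log2 units. Red bars mark medians and open diamonds the medians without filtered-air replicate 3; mitochondrial genome transcripts lie highest at 0.37 and complex I lowest at -0.26, and both move towards 0 without that library.

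No gene of the lists that define the egg passed. Of 7 oocyte-secreted factors, 5 zona and sperm-binding genes, 8 genes of the subcortical maternal complex, 20 of M-phase control and 9 of meiotic arrest, only Aurkc and Bora had groups that did not overlap, both higher with PM2.5, against 5.02% higher and 10.3% lower among all genes. Aurkc, the meiotic Aurora kinase, stood at 7.94, 7.75 and 7.93 in PM2.5 and 7.74, 7.69 and 7.74 in filtered-air oocytes. Several of these lists turned on filtered-air replicate 3. The zona gene Zp2 stood at 5.29, 5.37 and 5.32 in PM2.5 oocytes and at 4.99, 5.11 and 6.61 in filtered-air oocytes, and its difference was -0.24 with that library and 0.28 without it. Khdc3 of the subcortical maternal complex stood at 3.99, 4.13 and 3.68 in PM2.5 oocytes and at 3.43, 3.62 and 5.37 in filtered-air oocytes, with -0.20 and 0.41. The medians of the zona list (-0.13) and of the subcortical maternal complex (-0.11) changed sign without it, to 0.28 and 0.10. So did that of the 27 tested cytosolic ribosomal proteins, which was -0.12 with all libraries and 0.11 without that one. Among 36 genes of maternal mRNA storage and decay, 18 were higher and 18 lower by their means, and none passed.

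Of 28 tested ubiquitin ligase genes, 11 were higher and 17 lower by their means, near the 57.7% lower among all genes, and none passed. Without filtered-air replicate 3, 15 were higher and the median of -0.097 became 0.0076. Skp1a, the adaptor that links F-box proteins to the SCF ligase, stood at 6.50, 6.43 and 6.29 in PM2.5 oocytes and at 7.01, 6.98 and 7.22 in filtered-air oocytes (difference -0.66, SE 0.11, adjusted p = 0.0802). Uchl1, a ubiquitin hydrolase of germ cells and neurons, stood at 7.67, 7.79 and 7.84 in PM2.5 oocytes and at 8.02, 8.08 and 8.28 in filtered-air oocytes. Both were lower in every PM2.5 library.

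Lists of structure, metabolism and cell death held no gene that passed, with medians from -0.12 to 0.13, against -0.035 over all genes tested. They comprised 21 tested genes of the spindle, 27 of cohesin and the spindle checkpoint, 7 of egg calcium signaling, 25 maternal effect genes, 22 proteasome subunits, 17 subunits of complexes II to V, 8 of cholesterol, 13 of glycolysis, 11 of the tricarboxylic acid cycle, 10 of metal handling, 5 of the BCL2 family and 3 of NF-kB. The genes given here are those with the smallest p in 5 of these lists, so they are extremes and not typical members. Stmn1, which destabilizes microtubules, stood at 2.69, 2.55 and 3.15 in PM2.5 oocytes and at 3.64, 3.22 and 3.46 in filtered-air oocytes (difference -0.64, adjusted p = 0.51). Stmn1 met the limit of 3 only through the filtered-air libraries. Mdh1, the cytosolic malate dehydrogenase, stood at 6.18, 6.05 and 5.94 in PM2.5 oocytes and at 5.63, 5.67 and 5.85 in filtered-air oocytes (0.34, adjusted p = 0.52). The proteasome ATPase Psmc6 stood at 6.49, 6.46 and 6.08 in PM2.5 oocytes and at 6.81, 6.70 and 6.77 in filtered-air oocytes (-0.42, adjusted p = 0.481). The NF-kB inhibitor gene Nfkbia stood at 6.27, 6.98 and 6.63 in PM2.5 oocytes and at 6.25, 6.21 and 6.04 in filtered-air oocytes (0.46, adjusted p = 0.575). It falls outside the rule for named genes and was chosen after its values were seen. In these 4 and in Cox6a1, given next, the groups did not overlap, which a choice by smallest p makes likely. Among all genes the share without overlap was 15.3%. The cytochrome oxidase subunit Cox6a1 stood at 5.19, 5.14 and 4.61 in PM2.5 oocytes and at 5.30, 5.74 and 7.11 in filtered-air oocytes, and its difference of -1.07 was -0.54 without filtered-air replicate 3.

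Other genes with the smallest p that did not pass came from varied roles. Higher with PM2.5 were the kinase Cdk16 (3.50, 3.52 and 3.84 with PM2.5, 2.40, 2.75 and 2.68 with filtered air), the N-terminal acetyltransferase Naa30 (4.77, 4.78 and 4.79 with PM2.5, 3.93, 4.19 and 3.74 with filtered air), the kinase Dstyk with a difference of 1.14, the glutamate receptor Grm4 with 0.79 and the membrane tether Bst2 with 0.85. Lower with PM2.5 were the palmitoyltransferase Zdhhc5 (2.97, 2.74 and 2.78 with PM2.5, 3.78, 3.66 and 3.65 with filtered air), Ldlrad4, an inhibitor of TGF-beta signaling, with a difference of -0.85, the Rab exchange factor Dennd4c with -0.76 and the mitochondrial phenylalanine tRNA mt-Tf with -0.85. Their limma adjusted p lay between 0.0802 and 0.202, and in all 9 the groups did not overlap. Cdk16, Dstyk, Grm4, Bst2, Zdhhc5 and Ldlrad4 averaged 2.61 to 2.86 in the group where they are low. They met the limit only through the other group. Several of the widest separations without overlap held 1 library far from its group. The transcriptional repressor Ski stood at 4.97, 5.40 and 4.996 in PM2.5 oocytes and at 4.81, 2.76 and 2.92 in filtered-air oocytes (difference 1.63, SE 0.51, adjusted p = 0.498). The phospholipid enzyme Lpcat1 stood at 3.85, 5.65 and 5.42 in PM2.5 oocytes and at 3.69, 3.62 and 3.78 in filtered-air oocytes (1.28, adjusted p = 0.537). The cargo receptor Cnih1 stood at 3.92, 3.81 and 5.40 in PM2.5 oocytes and at 5.92, 5.98 and 6.35 in filtered-air oocytes (-1.70, adjusted p = 0.306), and the splicing regulator Esrp1 at 4.52, 5.95 and 4.33 in PM2.5 and 6.10, 6.12 and 6.25 in filtered-air oocytes (-1.23, adjusted p = 0.502). Over all genes the groups did not overlap in 15.3%, and 8.33% had an unadjusted p under 0.05, which covered 103 higher genes (2.52%) and 237 lower genes (5.81%).

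Of the genes without a protein product, Gm20052 stood at 2.49, 2.61 and 2.70 in PM2.5 oocytes and at 5.09, 4.98 and 4.96 in filtered-air oocytes. It fell by 2.41 (SE 0.12, limma adjusted p = 0.000505), the smallest p of all genes, and it passed with each library left out. It met the limit of 3 only through the filtered-air libraries, and with the limit at a mean of 1, which both groups exceed, it also passed (adjusted p = 0.000417). In cumulus cells it stayed between 0.13 and 0.48, and it was listed at 0 in all blastocyst libraries. Gm29999 stood at 3.55, 3.25 and 3.54 in PM2.5 oocytes and at 4.84, 4.91 and 4.73 in filtered-air oocytes, and it fell by 1.38 (SE 0.13, adjusted p = 0.0144). Its call was lost without filtered-air replicate 1 (0.082) or 3 (0.052) and in a fit with the replicate number added (0.128). It was also lost when every gene above 0 in any library was tested. The pseudogene Gm15542 stood at 5.13, 4.85 and 4.93 in PM2.5 oocytes and at 5.83, 5.92 and 6.02 in filtered-air oocytes (difference -0.95, SE 0.11, adjusted p = 0.0254). Of the 6 fits with a library left out it passed in 1, that without PM2.5 replicate 1 (0.0381 to 0.107 over the 6), and reads of a pseudogene may be shared with near-identical copies.

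Values at a high and a low level were not limited to genes that followed the exposure. In 83 of the 4080 genes the 6 libraries fell on levels at least 1 log2 unit apart with at most 0.5 within a level, a count made after the data were seen. In 80 of the 83 both levels occurred within an exposure group. The levels followed the exposure in 3, which were Gm20052, Eps8 and Gm29999, all lower with PM2.5. Of 12 genes with 3 libraries at each level, 9 mixed the exposure groups. Among them the nuclear import receptor Tnpo1 stood at 1.16, 5.20 and 5.30 in PM2.5 oocytes and at 1.02, 5.32 and 1.02 in filtered-air oocytes. Cpeb4, which controls the poly(A) tails of stored messages, stood at 1.47, 1.63 and 4.58 in PM2.5 oocytes and at 4.54, 1.42 and 4.52 in filtered-air oocytes. The folliculin gene Flcn stood at 5.11, 2.29 and 5.24 in PM2.5 oocytes and at 2.07, 2.20 and 5.05 in filtered-air oocytes. The part of such steps in the differences of Pacsin2, Eps8, Gm20052 and Gm29999 was not tested.

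**Figure D4:**
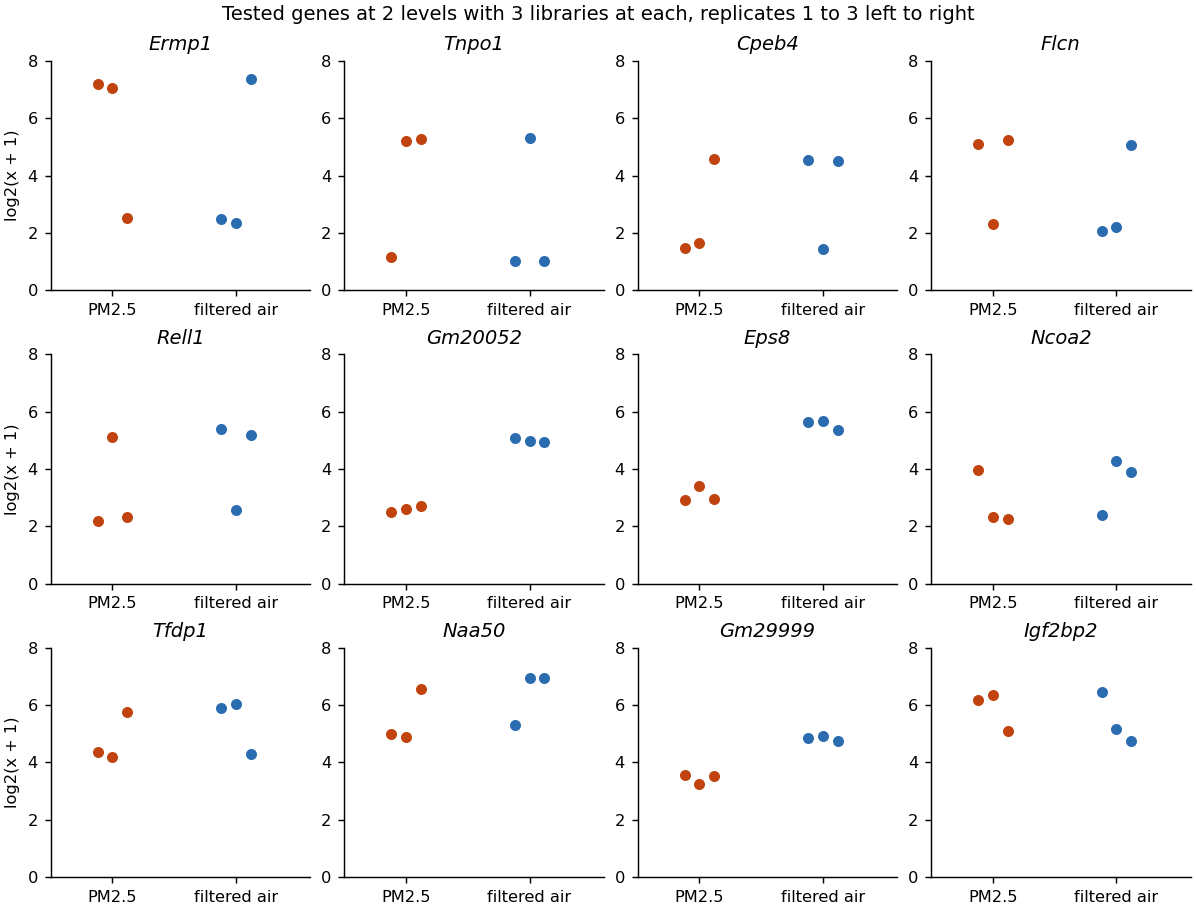
Each panel shows log2(x + 1) in the 3 PM2.5 libraries (red, left) and the 3 filtered-air libraries (blue, right) of a gene with 3 libraries at each of 2 levels. In 9 of the 12 panels, such as Tnpo1, both levels appear in both groups, and in Gm20052, Eps8 and Gm29999 they follow the exposure.

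The starts of the genes that passed were searched for short motifs of the pathways named above, since several genes fell together. RefSeq (build GRCm38.p6, which is mm10) gave 11 promoters for 7 of the 9 genes, and Eps8 and Gm15542 had no entry. The motifs were GCGTG, the core of the aryl hydrocarbon receptor element, TGACNNNGC, the core of the antioxidant response element, GAANNTTC, a pair of heat shock units, and TATAAA, the TATA box, on either strand. The 250 bases upstream of a start are shown 5′ to 3′ on the gene's strand for 6 genes, with matches in capitals (CACGC is GCGTG on the other strand). Pacsin2 and Dnaja1 have other starts, and the one farthest upstream is shown.
Pacsin2, chr15:83464607-83464856, minus strand: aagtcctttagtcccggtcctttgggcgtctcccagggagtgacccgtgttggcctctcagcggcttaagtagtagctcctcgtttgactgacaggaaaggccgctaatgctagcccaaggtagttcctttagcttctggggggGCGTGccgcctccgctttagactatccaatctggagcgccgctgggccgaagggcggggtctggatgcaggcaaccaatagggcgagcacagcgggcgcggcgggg
Mrpl9, chr3:94443086-94443335, plus strand: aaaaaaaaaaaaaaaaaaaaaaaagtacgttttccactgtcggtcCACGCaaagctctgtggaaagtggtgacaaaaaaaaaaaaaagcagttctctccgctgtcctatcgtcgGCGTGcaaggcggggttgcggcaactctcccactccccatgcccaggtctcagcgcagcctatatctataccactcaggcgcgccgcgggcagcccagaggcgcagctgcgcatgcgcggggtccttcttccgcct
Neil3, chr8:53639066-53639315, minus strand: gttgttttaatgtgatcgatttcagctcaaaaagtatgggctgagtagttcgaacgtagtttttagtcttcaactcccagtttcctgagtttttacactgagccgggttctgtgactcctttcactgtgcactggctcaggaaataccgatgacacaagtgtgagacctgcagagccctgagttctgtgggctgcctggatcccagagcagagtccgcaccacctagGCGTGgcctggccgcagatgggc
Gna14, chr19:16435417-16435666, plus strand: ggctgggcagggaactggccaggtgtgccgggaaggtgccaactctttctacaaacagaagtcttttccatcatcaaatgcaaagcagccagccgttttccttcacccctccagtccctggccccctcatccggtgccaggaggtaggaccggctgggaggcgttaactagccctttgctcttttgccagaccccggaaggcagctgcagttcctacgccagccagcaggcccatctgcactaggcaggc
Dnaja1, chr4:40722218-40722467, plus strand: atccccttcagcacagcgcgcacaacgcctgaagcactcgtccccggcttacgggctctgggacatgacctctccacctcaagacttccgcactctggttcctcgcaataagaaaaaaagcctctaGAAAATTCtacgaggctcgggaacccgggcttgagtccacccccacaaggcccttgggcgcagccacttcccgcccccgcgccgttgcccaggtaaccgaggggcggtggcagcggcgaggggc
Gm20052, chr5:37893522-37893771, plus strand: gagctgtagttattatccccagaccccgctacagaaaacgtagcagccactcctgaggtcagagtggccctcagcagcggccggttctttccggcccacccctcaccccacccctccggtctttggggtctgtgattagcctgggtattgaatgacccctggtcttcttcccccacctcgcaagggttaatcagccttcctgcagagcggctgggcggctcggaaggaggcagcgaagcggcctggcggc
The receptor core stood at -106 from this start in Pacsin2 and at -23 in Neil3, counted to the first base of the match with the base before the start as -1, and there were 2 matches in Mrpl9. The heat shock pair stood at -124 in Dnaja1. The other 2 Dnaja1 starts, whose windows overlap, held 3 receptor cores each and no heat shock pair. Of the other Pacsin2 starts, 1 held an antioxidant core at -152 and 1 a receptor core at -120, and the promoter of Gm29999, not shown, held a receptor core at -92. Over all 11 promoters the receptor core occurred in 7, the antioxidant core in 1, the heat shock pair in 1 and the TATA box in 0. Gna14 and Gm20052 held none of the 4 motifs in this window. For comparison the receptor core occurred in 46.9% of 3841 promoters of tested genes, the antioxidant core in 12.8%, the heat shock pair in 5.49% and the TATA box in 7.13%. A match is a run of letters and was not tested as a binding site.

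None of the tested genes within 500 kb of a gene that passed did so itself, and their differences lay between -0.37 and 0.26. Smu1, 0.684 kb from Dnaja1, had a difference of -0.15. Vps13a, 4.55 kb from Gna14, had -0.04, and Strap, 85.7 kb from Eps8, had -0.23. No tested gene lay within 500 kb of Neil3.

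Whether the oocyte difference was unlike that of other tissues was tested by subtracting the exposure difference of the other tissue, with all 18 libraries in the model (a difference of differences). These comparisons share the oocyte libraries. Against cumulus cells, 8 of 2027 genes tested in both passed (0.395%), and 15.2% had an unadjusted limma p under 0.05. Among the 8, Gm10076, Gm11808 and Dynlt1-ps1 met the oocyte limit only through the filtered-air libraries. Mrpl9, which rose in oocytes, stood at 4.70, 4.66 and 4.95 in PM2.5 cumulus cells and at 4.95, 4.77 and 4.97 in filtered-air cumulus cells, so that its oocyte difference exceeded the cumulus difference by 1.09 (SE 0.20, adjusted p = 0.0277). Gm15542 stood at 5.79, 5.53 and 5.57 in PM2.5 cumulus cells and at 5.61, 5.56 and 5.59 in filtered-air cumulus cells, a difference of differences of -0.99 (SE 0.18, adjusted p = 0.0277). Hspe1 was lower in every PM2.5 oocyte library (4.65, 4.56 and 4.46, against 4.97, 5.03 and 5.25 with filtered air) and stood at 6.84, 7.19 and 7.20 in PM2.5 and 6.83, 6.65 and 6.46 in filtered-air cumulus cells, which gave -0.96 (adjusted p = 0.0277). Of the 8 genes only Plaa passed in all 12 fits that left out an oocyte or cumulus library. The other 7 were all lost without PM2.5 oocyte replicate 2, PM2.5 cumulus replicate 2 or filtered-air cumulus replicate 2 or 3, with adjusted p of 0.0524 to 0.144, and some also without other libraries. The count of 8 ranged from 1 to 63 with a library left out, with 1 without PM2.5 oocyte or cumulus replicate 2, 63 without PM2.5 cumulus replicate 1 and 29 without filtered-air cumulus replicate 1.

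In Plaa and Ndufa4 the groups overlapped in oocytes and were apart in cumulus cells. Plaa, a ubiquitin-binding partner of the segregase VCP, stood at 6.61, 6.58 and 6.45 in PM2.5 oocytes and 6.48, 6.44 and 6.42 in filtered-air oocytes, and at 3.11, 2.85 and 2.76 in PM2.5 and 4.76, 4.91 and 5.15 in filtered-air cumulus cells. It fell by 2.03 in cumulus cells (adjusted p = 0.00312). The difference of differences was 2.13 (SE 0.31, limma adjusted p = 0.00571). Plaa met the cumulus limit of 3 only through the filtered-air libraries. With the limit at a mean of 1, which both groups exceed, the difference of differences also passed (adjusted p = 0.00994). The cumulus difference alone was not refitted at that limit. Ndufa4, first assigned to complex I and later to cytochrome oxidase, stood at 5.03, 4.94 and 5.03 in PM2.5 and 4.99, 4.89 and 5.29 in filtered-air oocytes, and at 6.99, 7.32 and 6.88 in PM2.5 and 6.29, 5.87 and 5.77 in filtered-air cumulus cells. Its cumulus difference of 1.09 did not pass (adjusted p = 0.133), while the difference of differences of -1.14 did (adjusted p = 0.0277). Against blastocysts none of 2054 genes passed in limma (0.0%), and 6.62% (136 genes) had an unadjusted p under 0.05. Mrpl9 and Gm15542 came nearest, with differences of differences of 1.02 and -0.97 and an adjusted p of 0.070 each, together with Timm10 (1.69, adjusted p = 0.070). In cumulus cells Timm10 was also higher with PM2.5, at 5.25, 5.77 and 5.82 against 4.97, 4.47 and 4.43 with filtered air. Of the other genes that passed in oocytes, Dnaja1 was tested in all tissues, with -0.74 against cumulus cells (adjusted p = 0.169) and -1.10 against blastocysts (0.121). The remaining 6 were below the limit in cumulus cells and blastocysts. With the limit at a mean of 1, Pacsin2 gave 2.65 against cumulus cells (SE 1.51, adjusted p = 0.513) and 4.39 against blastocysts (SE 1.502, adjusted p = 0.556), and Gna14 gave -1.01 against blastocysts (adjusted p = 0.828). Neither passed, and the other 4 were not compared.

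**Figure D5:**
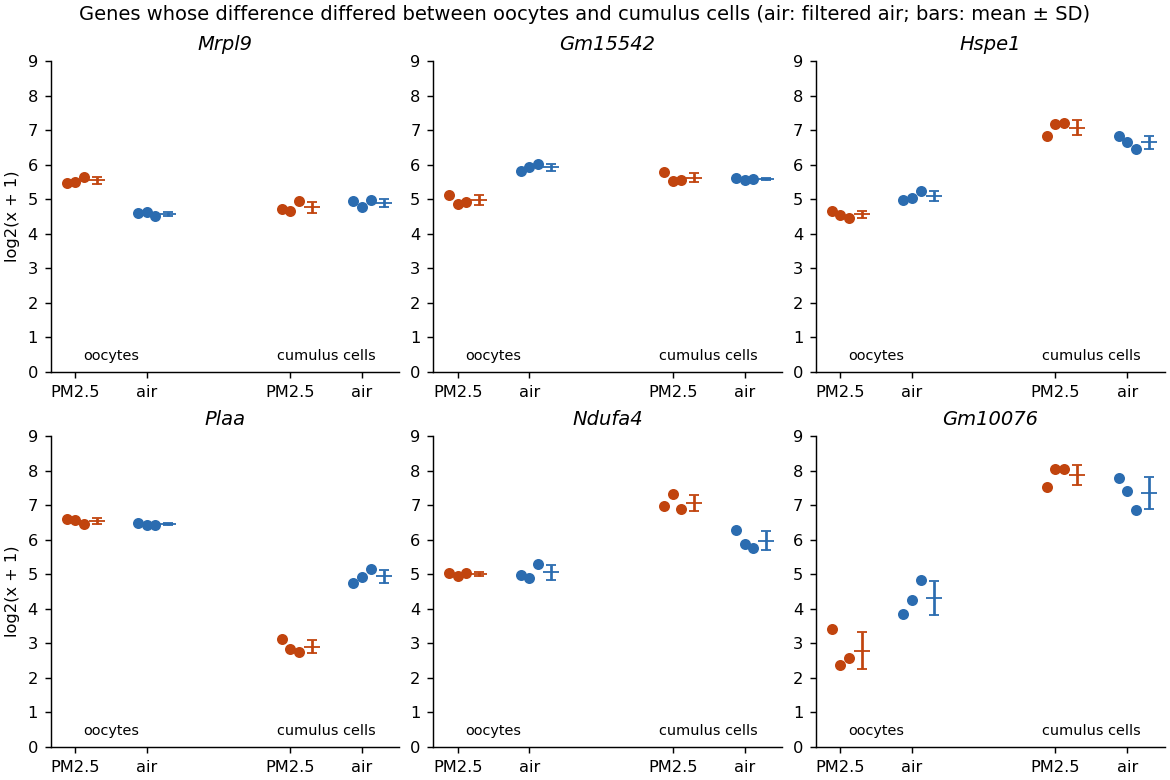
Each panel shows log2(x + 1) of a gene in oocytes (left pair) and cumulus cells (right pair), with PM2.5 in red, filtered air in blue, a point per library and the mean with its SD. In Mrpl9 and Gm15542 the groups are apart in oocytes and overlap in cumulus cells, and in Plaa they are apart in cumulus cells only, at 2.76 to 3.11 with PM2.5 against 4.76 to 5.15 with filtered air.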

How the data were processed

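RNA sequencing values of 6 oocyte libraries were compared, 3 per exposure group, with the 12 cumulus and blastocyst libraries beside them. Per the labels' protocols, cells were lysed and reverse transcribed directly, terminal transferase added a poly(A) tail to the first-strand cDNA, then came amplification and paired-end sequencing. The authors deposited log2(x + 1) values, where x is a normalized count. The submitters' processing notes list FastQC, DESeq 1.22.1, Cuffnorm and the build mm10 (roles, order, annotation and aligner not given in the sources used here). In low values the commonest ratio between libraries was shared by 23 to 34 of 3641 to 4308 genes, against 13 to 15 after shuffling. Whole reads were not recovered from this excess, so depth is unknown and no count model was run. limma 3.58.1 in R 4.3.3 (lmFit, eBayes with a mean-variance trend) was fitted to all 4080 genes with a mean of at least 3, as a two-sided test, p-values were adjusted by Benjamini-Hochberg and called below 0.05, and differences of differences were fitted to all 18 libraries. The oocyte model was tested on simulated data. The members, the 42 gene lists and the tests were chosen with earlier results of these data known.

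The genes named are those past the threshold, the 10 with the smallest p and the 5 with the largest non-overlapping difference in each direction that have a gene name, up to 4 members with the smallest p per list of 5 or more tested genes, the 4 with the smallest p in each difference of differences, and the markers; others were picked after their values were seen. Alternatives changed the scaling, pseudocount, filter, variance model and libraries. Of 27 symbols that had become dates, 6 were among the tested genes and were replaced from gene identifiers. RefSeq matched 3912 of the 4080 genes and gave coordinates and types.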

Additional observations from a re-analysis of the deposited data

Results flagged for a closer look

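In 8 genes the PM2.5 difference itself differed between oocytes and cumulus cells (limma, difference of differences, adjusted p below 0.05). The signed difference was higher in oocytes than in cumulus cells by 2.13 for Plaa, where it was 0.10 in oocytes and -2.03 in cumulus cells, and by 1.09 for Mrpl9. It was lower in oocytes for Gm15542 (-0.99), Ndufa4 (-1.14), Hspe1 (-0.96), the pseudogene Dynlt1-ps1 (-1.31), Gm10076 (-2.04) and Gm11808 (-1.62). Gm10076 stood at 3.41, 2.39 and 2.57 in PM2.5 and 3.85, 4.25 and 4.84 in filtered-air oocytes, and at 7.54, 8.04 and 8.05 in PM2.5 and 7.80, 7.41 and 6.86 in filtered-air cumulus cells. Gm11808 stood at 2.86, 2.73 and 2.58 in PM2.5 and 3.62, 3.38 and 4.61 in filtered-air oocytes, and at 8.41, 8.86 and 9.10 in PM2.5 and 8.50, 8.28 and 8.17 in filtered-air cumulus cells. Dynlt1-ps1 stood at 7.43, 7.72 and 7.80 in PM2.5 and 6.94, 6.90 and 6.82 in filtered-air cumulus cells. With PM2.5 these genes averaged 2.79 (Gm10076), 2.72 (Gm11808) and 2.73 (Dynlt1-ps1) in oocytes, so they met the limit only through the filtered-air libraries. With the limit at a mean of 1, the limma adjusted p of their differences of differences was 0.0479, 0.0574 and 0.0438. Gm11808 was then not past the threshold. Plaa met the cumulus limit only through the filtered-air libraries, and with the limit at a mean of 1 it also passed (adjusted p = 0.00994). Counts of such genes ranged from 1 to 63 when a library was left out, with 63 without PM2.5 cumulus replicate 1.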

How the results depend on the processing

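The 9 calls in oocytes became 16 with a mean of at least 1, 4 with a mean of at least 5, 5 with every gene above 0 in any library (of which 2 were among the 9), 20 with library quality weights and 27 (7 of the 9) with all 18 libraries. Leaving out a library gave 2 to 11, namely 3 when filtered-air replicate 1 was dropped and 2 when replicate 3 was. Other scalings, pseudocounts, no trend and the robust fit gave 9 to 12. Same-numbered libraries deviated from their group means at correlations of -0.092, -0.073 and -0.069. Such deviations cancel within a group, so these correlations cannot decide whether the numbers pair the samples, and the library titles do not say. A fit with the replicate number as a block gave 3 calls, Gm20052, Eps8 and Pacsin2. Against cumulus cells the 8 became 24 with quantile normalization, 1 with the replicate block, 15 with a mean of at least 1 and 1 to 63 with a library left out. Against blastocysts the 0 became 12 with quantile normalization, 2 with a mean of at least 1 and 0 to 7 with a library left out, and stayed 0 with the replicate block. The cause of these shifts was not tested. Of the single genes refitted under every alternative, Ndufa4 and Srp72, neither of which passed in the oocyte comparison, changed sign. Without filtered-air replicate 3, Zp2, Khdc3, Bmp15 (-0.068 with it, 0.099 without), Zp3 (-0.13 and 0.076) and Ahr (-0.0076 and 0.015) did so too. Ndufa4 was at 0.024 with quality weights and between -0.14 and 0.060 with a library left out, with 0.060 without filtered-air replicate 3. Srp72 was at 0.0032 with quantile normalization and between -0.19 and 0.028 with a library left out. Depth is unknown, and with 3 libraries per group a difference near the median SE of 0.15 could not be detected.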

Other observations

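Genes under the limit held further large differences, chosen here after their values were seen. With the limit at a mean of 1, Pttg1ip, whose product binds securin, stood at 0.88, 1.25 and 0.53 in PM2.5 oocytes and at 5.07, 4.95 and 4.92 in filtered-air oocytes, a difference of -4.09. Galnt7, an enzyme that adds O-linked sugars, stood at 3.62, 3.20 and 3.02 in PM2.5 oocytes and at 0.19, 0.21 and 0.43 in filtered-air oocytes (3.01). Each met the limit only through the group where it is high, so no test is given for them. The tropomyosin copy Tpm3-rs7 stood at 3.43, 3.79 and 3.50 in PM2.5 oocytes and at 1.58, 2.02 and 1.38 in filtered-air oocytes (1.91, limma adjusted p = 0.0199 over 8614 genes), and its reads may be shared with Tpm3. Gm26683 stood at 1.81, 2.18 and 2.28 in PM2.5 oocytes and was listed at 0 in all filtered-air oocytes. Gm5286 was listed at 0 in all PM2.5 oocytes and stood at 2.36, 2.26 and 2.44 in filtered-air oocytes.

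Separate levels within a group, as described for Tnpo1, were seen in 80 of the 4080 genes. They occurred in 3 of the 36 tested genes of maternal mRNA storage and decay and in 1 of the 25 maternal effect genes. Other lists held such genes too, with 2 of 5 zona and sperm-binding genes, 1 of 10 antioxidant enzymes and 1 of 14 complex I genes. The examples here were chosen after their values were seen. The methylcytosine dioxygenase Tet3 stood at 4.29, 6.20 and 4.54 in PM2.5 oocytes and at 5.95, 6.06 and 6.05 in filtered-air oocytes. Cpeb3 stood at 4.49, 0.37 and 4.44 in PM2.5 oocytes and at 0.23, 4.69 and 4.34 in filtered-air oocytes. The cap-binding factor gene Eif4e stood at 2.32, 2.26 and 5.29 in PM2.5 oocytes and at 5.41, 2.49 and 2.45 in filtered-air oocytes. The splicing regulator Ptbp2 stood at 2.49, 5.12 and 2.25 in PM2.5 oocytes and at 5.31, 5.21 and 5.36 in filtered-air oocytes. Of the 83 genes at separate levels, 53 had 1 library alone at its level, low in 43 and high in 10. Filtered-air replicate 3 was the library most often alone in its group, at least 1 log2 unit from the others in 64 genes (44 high, 20 low), against 22 to 36 genes for the other 5.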
